A study of Homo sapiens with 9 samples.

Results

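The clustered protocadherins are neighbouring families of cell adhesion genes on the long arm of chromosome 5, named PCDHA, PCDHB and PCDHG. They were taken as every non-control array probe whose gene name begins with one of these 3 stems, which gave 58 of 50599 probes and 50 of 36337 gene names on the array. PCDHA had 16 probes, PCDHB 19 and PCDHG 23. The study silenced UHRF1, a protein that guides maintenance of DNA methylation, in RKO, a colorectal cancer cell line, and asked how gene expression changed when a histone deacetylase inhibitor, trichostatin A (TSA), was added. Total RNA was hybridized to 9 one-colour Agilent arrays. Cells received a control siRNA (siCONT) or a UHRF1 siRNA (siUHRF1) for 72 h and then either mock or 300 nM TSA for 24 h. The resulting groups, written siCONT and siUHRF1 without TSA and siCONT + TSA and siUHRF1 + TSA with it, had 2 arrays apiece. Replicates 1 and 2 of both UHRF1-depleted groups carried different siRNAs, siUHRF1-1 and siUHRF1-2, so their spread includes that between siRNAs, whereas nothing says that the siCONT arrays came from separate cultures, and p-values then measure a spread that may be technical. A further array held RKO cells given 1 µM 5-aza-dC, an inhibitor of DNA methyltransferases, for 72 h without any siRNA. Its slide and its scan were not those of the other arrays, so the drug cannot be told apart from slide, scan and the missing transfection. On the shared slide of the siRNA arrays, mock arrays filled 1 row and TSA arrays the other, so row and TSA cannot be told apart either.

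Clustered protocadherins are cadherin-like transmembrane proteins that bind copies of themselves on a neighbouring cell. In neurons each cell uses a small choice of them, which gives it a surface identity. In PCDHA and PCDHG, every variable exon has its own promoter and is spliced to exons shared by the whole cluster, whereas each PCDHB gene is a single exon with no shared part. The variable exons of the C type (PCDHAC, PCDHGC) lie last in their clusters and follow rules of their own. Promoter choice is known to involve DNA methylation, CTCF and cohesin, and the region is known for methylation across many neighbouring promoters in colorectal and other tumours.

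The probes of these closely related genes decide what can be read. Each is 60 bases long and was placed by the array files on build hg19. Of the 16 PCDHA probes, 15 were designed on transcript variant 2, the short form that is not joined to the shared exons, and 1, the PCDHA11 probe at chr5:140390896-140390955, was designed on variant 1 and lies beyond all other PCDHA probes, among the shared exons. Of the 23 PCDHG probes, 21 were on variant 2, and the PCDHGA8 probe at chr5:140892394-140892453 was the single one on variant 1. Both are called the shared-exon probes here, since every gene of the respective cluster ends at 1 coordinate in the RefSeq table. The next 4 sequences are shown because their probes turn out to separate the conditions (PCDHA1, PCDHA3, PCDHA6) or not (PCDHA7). They lie at chr5:140168240-140168299, chr5:140183149-140183208, chr5:140210009-140210068 and chr5:140216279-140216338. The capitals mark GTNAG read on the printed strand, letters with which a splice donor often begins.
PCDHA1: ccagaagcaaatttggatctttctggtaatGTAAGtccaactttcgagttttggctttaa
PCDHA3: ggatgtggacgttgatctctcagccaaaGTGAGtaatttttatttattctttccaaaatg
PCDHA6: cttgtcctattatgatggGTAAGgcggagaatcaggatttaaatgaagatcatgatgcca
PCDHA7: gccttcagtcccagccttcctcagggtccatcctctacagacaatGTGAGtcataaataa

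GTNAG was found in 13 of 16 PCDHA probes (81.2%), in 4 of 19 PCDHB probes (21.1%) and in 8 of 23 PCDHG probes (34.8%), against 15.7% of all 50599 probes. These letters were chosen after the sequences were seen, and a match is no proof of a splice site. Probes could also share sequence with a relative. No PCDHA probe shared a run of 20 or more bases with a probe of another gene name in the 3 clusters, and the longest such run was 12 bases. In PCDHB, 2 of 19 probes did, and in PCDHG 3 of 23. Only exact runs between probes were compared, not probes with the RNA of other genes, so a short run does not exclude shared signal. The PCDHB15 probe had a longest run of 9 bases, yet its start resembles that of the PCDHB2 probe apart from single mismatches. The closest pairs are printed with the shared run in capitals, because signal at one of them may include RNA of the other. PCDHB2 and PCDHB13 share 23 bases and PCDHGA2 and PCDHGA3 share 24, whereas PCDHGA3 shares 32 with PCDHGA5, which is the run in capitals in its own line.
PCDHB2: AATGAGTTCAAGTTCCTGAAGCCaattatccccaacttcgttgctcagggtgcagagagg
PCDHB13: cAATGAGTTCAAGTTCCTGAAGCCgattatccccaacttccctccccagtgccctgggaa
PCDHGA2: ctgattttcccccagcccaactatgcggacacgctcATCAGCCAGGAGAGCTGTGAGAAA
PCDHGA3: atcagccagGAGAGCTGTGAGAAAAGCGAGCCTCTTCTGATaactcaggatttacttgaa

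Promoter windows of 300 bases around each transcription start came from RefSeq on GRCh38.p14. A window was found for 13 of 15 PCDHA, 13 of 18 PCDHB and 14 of 17 PCDHG gene names. They were poor in CpG, the dinucleotide that carries DNA methylation. The median 300-base window held 7 CpG in PCDHA, 7 in PCDHB and 7.5 in PCDHG, against 14 over the 27305 genes with a window. The median G+C share was 37.3%, 39.7% and 45.2%, against 58.3%. In PCDHA the C-type windows held more CpG than the others, with 27 at PCDHAC1 and 15 at PCDHAC2 against 3 to 9 from PCDHA1 to PCDHA12. In PCDHG they did not stand apart, with 18 at PCDHGC3 and 23 or 24 at the starts of PCDHGC4, since those of PCDHGB6 held 16 and 25. CGCT on either strand, the core of an element conserved among these promoters, was present in 12 of 13 PCDHA windows (92.3%) and in every PCDHB and PCDHG window found, against 69.4% of all genes. Letters this short are common, and the count is a description. The 4 windows below, with CpG in capitals, stand for promoters whose probes were low in control cells and higher in treated cells (PCDHA1, PCDHA6, PCDHB5) and for a C-type promoter whose probe stayed below background on every array (PCDHAC2). They are chr5:140785890-140786189, chr5:140827710-140828009, chr5:141134956-141135255 and chr5:140966226-140966525, all on the plus strand.
PCDHA1 promoter: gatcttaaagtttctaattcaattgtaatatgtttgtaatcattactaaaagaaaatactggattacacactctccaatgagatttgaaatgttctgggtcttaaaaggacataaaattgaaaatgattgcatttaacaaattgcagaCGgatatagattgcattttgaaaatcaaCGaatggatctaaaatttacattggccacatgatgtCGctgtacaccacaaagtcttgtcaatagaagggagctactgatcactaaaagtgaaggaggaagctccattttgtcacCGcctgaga
PCDHA6 promoter: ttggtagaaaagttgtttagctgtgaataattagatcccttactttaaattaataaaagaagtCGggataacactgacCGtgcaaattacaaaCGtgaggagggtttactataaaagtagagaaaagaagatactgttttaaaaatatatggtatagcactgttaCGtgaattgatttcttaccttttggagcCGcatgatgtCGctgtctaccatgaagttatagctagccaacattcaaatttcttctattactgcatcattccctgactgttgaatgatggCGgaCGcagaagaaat
PCDHB5 promoter: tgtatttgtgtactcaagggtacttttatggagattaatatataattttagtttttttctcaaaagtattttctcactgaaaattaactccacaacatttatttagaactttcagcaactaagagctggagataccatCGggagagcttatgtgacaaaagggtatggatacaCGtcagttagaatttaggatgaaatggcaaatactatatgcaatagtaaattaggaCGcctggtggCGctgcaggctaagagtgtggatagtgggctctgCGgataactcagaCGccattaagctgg
PCDHAC2 promoter: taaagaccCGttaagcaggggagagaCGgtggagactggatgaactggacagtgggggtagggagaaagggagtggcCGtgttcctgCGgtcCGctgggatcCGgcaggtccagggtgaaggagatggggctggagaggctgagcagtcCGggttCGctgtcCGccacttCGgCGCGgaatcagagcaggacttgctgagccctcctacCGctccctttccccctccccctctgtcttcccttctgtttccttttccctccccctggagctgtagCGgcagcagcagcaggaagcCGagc

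In control RKO cells, all but 1 of the 16 PCDHA probes were below detection. Signal on every array was found for 1 of 16 probes in PCDHA, 9 of 19 in PCDHB and 14 of 23 in PCDHG. A probe counts as detected where the scanner software marked its spot as well above background. In PCDHA, 1 of 16 probes was detected on each siCONT and each siCONT + TSA array, 2 on each siUHRF1 array, 6 and 5 with siUHRF1 + TSA and 8 with 5-aza-dC. The detected share of PCDHA was thus 6.2% to 12.5% on the other siRNA arrays and 31.2% to 37.5% with UHRF1 depletion and TSA together. PCDHB ranged from 9 probes (47.4%) to 12 (63.2%) with siRNA and reached 13 (68.4%) with 5-aza-dC. PCDHG was flat, with 14 of 23 probes (60.9%) on 8 arrays and 15 on the first siCONT + TSA array. Over all 50599 probes, 43.6% to 46.6% were detected per siRNA array, and 51.6% with 5-aza-dC, where the 75th percentile of the signals was also higher.

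**Figure D1:**
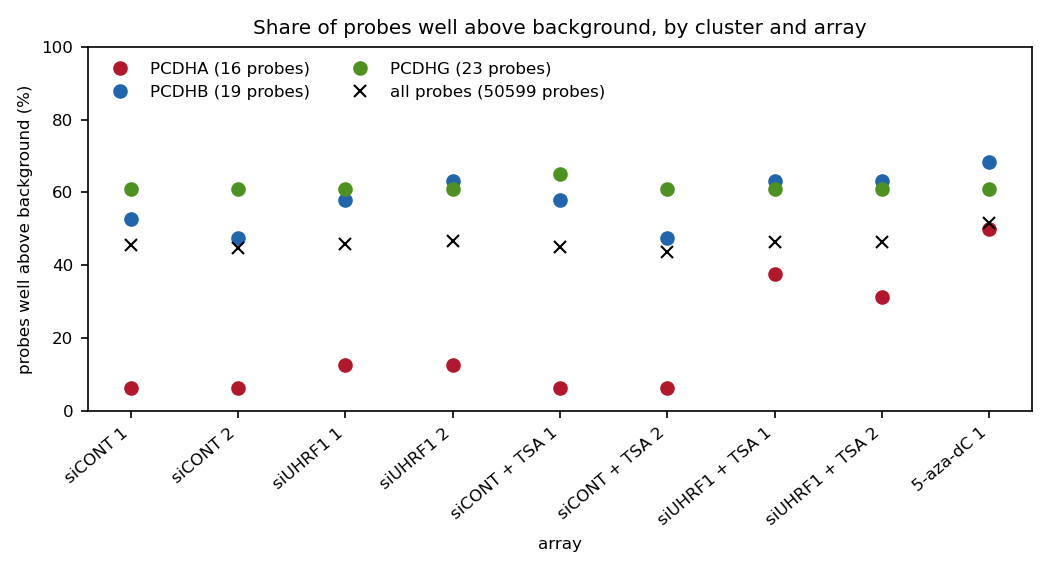
Share of probes well above background (vertical axis, percent) on each of the 9 arrays (horizontal axis), by cluster, with all probes of the array as crosses. PCDHA lies between 6.2% and 12.5% on the first 6 arrays, at 37.5% and 31.2% on the siUHRF1 + TSA arrays and at 50% on the 5-aza-dC array, while PCDHG stays between 60.9% and 65.2%.

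Every probe can be placed in this scheme. On all 9 arrays, 24 of 58 probes were detected: 1 in PCDHA (PCDHA7), 9 in PCDHB and 14 in PCDHG. On none of them were 20, of which 7 were in PCDHA, 5 in PCDHB and 8 in PCDHG. The undetected probes include every C-type member on the array, PCDHAC1, PCDHAC2, PCDHGC3, PCDHGC4 and PCDHGC5. The remaining 14 probes came and went between arrays, 8 in PCDHA, 5 in PCDHB and 1 in PCDHG. Of these, PCDHA1, PCDHA3 and PCDHA6 were detected on both siUHRF1 + TSA arrays and on no other siRNA array. PCDHA5, PCDHA10, PCDHA13, PCDHB5 and PCDHB18 were detected on the 5-aza-dC array alone. The RefSeq symbol of the PCDHB18 probe is PCDHB18P, that of a pseudogene. PCDHA12 was detected only on the first siUHRF1 + TSA array, and the variant 2 probe of PCDHGA8 only on the first siCONT + TSA array.

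**Figure D2:**
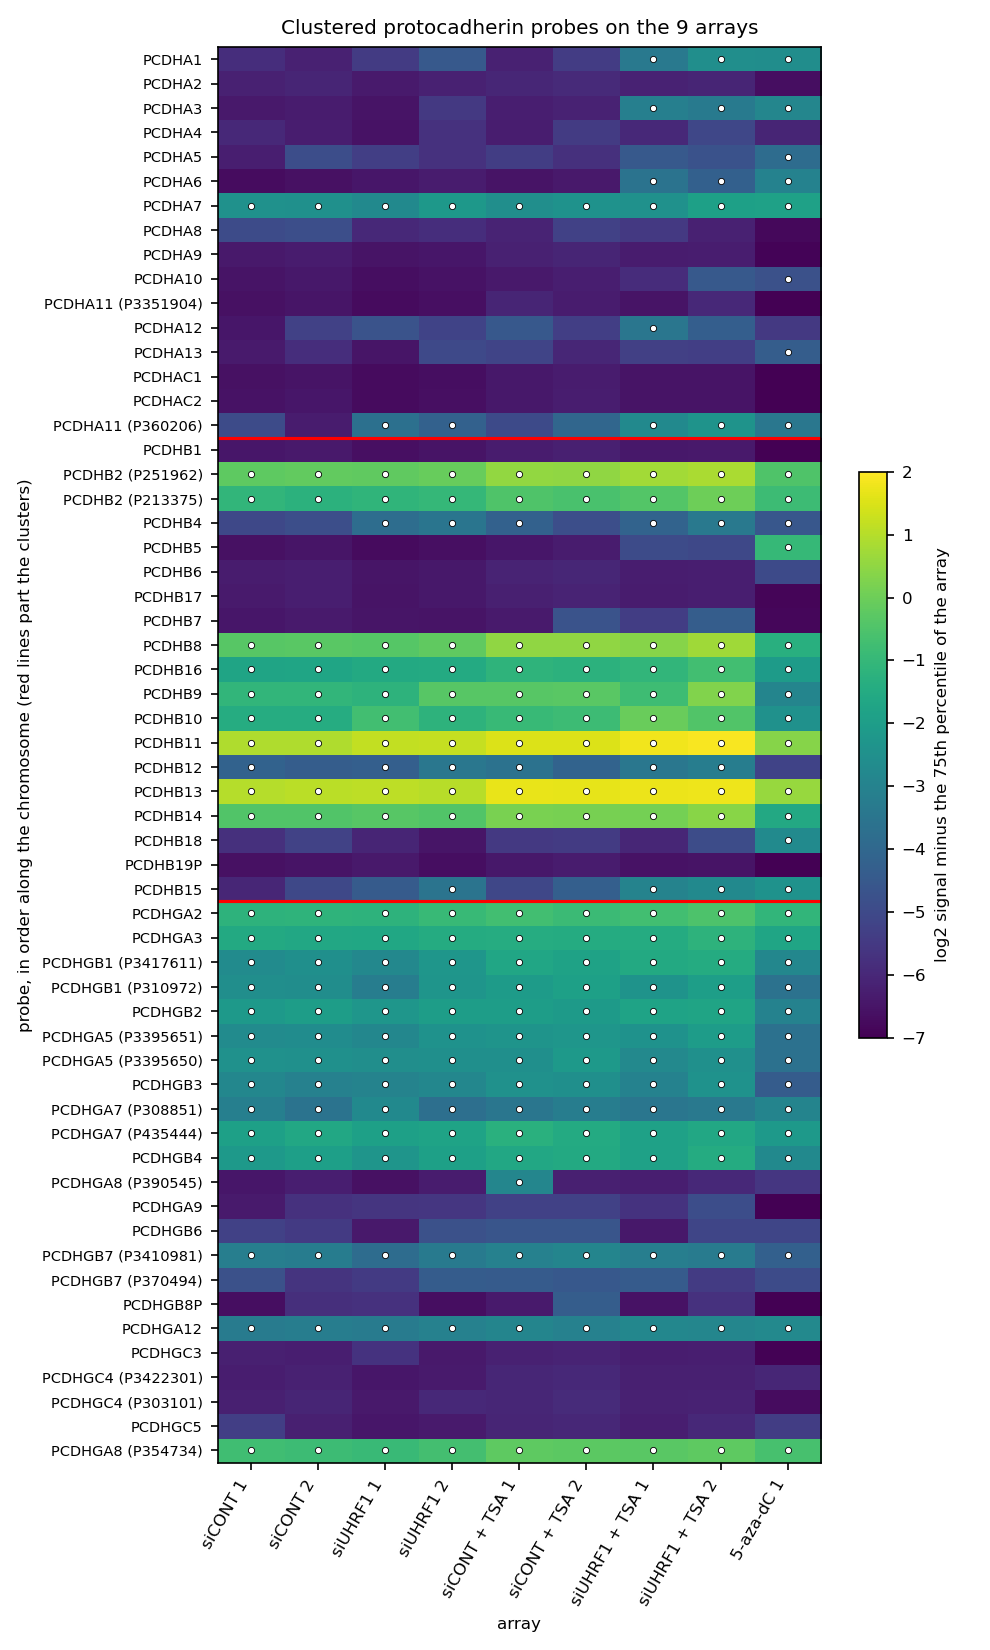
Log2 signal relative to the array's 75th percentile (colour) of the 58 probes, in their order along the chromosome (vertical axis), on the 9 arrays (horizontal axis), with a white dot where the probe was well above background. The PCDHA block at the top is dark and nearly free of dots outside the siUHRF1 + TSA and 5-aza-dC columns, while 9 PCDHB and 14 PCDHG probes carry dots in all columns.

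Levels are given as the log2 signal minus the 75th percentile of the same array, so that 0 is that percentile. They are compared between arrays and never between probes. The silencing itself was checked at UHRF1, for which the array carries 2 probes. The brighter one read 2.69 and 2.69 on the siCONT arrays, 0.36 and 0.07 on the siUHRF1 arrays, 2.87 and 2.86 with siCONT + TSA, -0.34 and -0.62 with siUHRF1 + TSA and 3.69 with 5-aza-dC. It was low on all 4 arrays with a UHRF1 siRNA, and the groups did not overlap. In log2 units it fell by 2.47 from siCONT to siUHRF1 (SE 0.14, adjusted p = 0.00237), and the other probe fell by 2.34 (SE 0.16, adjusted p = 0.00362). All tests of the siRNA arrays are limma fits over 23699 probes that were detected on both arrays of at least 1 siRNA group, with Benjamini-Hochberg adjustment and a call below 0.05. Of the 58 protocadherin probes, 31 met this filter: 5 in PCDHA, 12 in PCDHB and 14 in PCDHG. PCDHA1, PCDHA3, PCDHA6 and PCDHB15 met it only through the siUHRF1 + TSA arrays, which had to be high for them to be tested at all, so their calls below are a description of detected probes. PCDHA11, PCDHB4 and PCDHB12 met it only through the siUHRF1 and siUHRF1 + TSA arrays.

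UHRF1 depletion without TSA changed no protocadherin probe by this test. In siUHRF1 against siCONT, 0 of 31 probes were called, beside 0.557% of all probes tested (0.519% higher, 0.038% lower). At an unadjusted limma p below 0.05 there were 5 (PCDHA11, PCDHB4, PCDHB10, PCDHB11 and PCDHB15), all with a higher mean in siUHRF1, while the methods' t-test counted 3 unadjusted and 0 after adjustment. The share of all probes at an unadjusted p below 0.05 is not given here, so the unadjusted counts cannot be judged against it. The shared-exon probe of PCDHA11 read -4.93 and -6.33 on the siCONT arrays and -3.69 and -4.21 on the siUHRF1 arrays, where it was detected on both. The groups did not overlap, and the level in siUHRF1 was at least 1.29-fold that in siCONT (adjusted p = 0.379). Here and below, "at least" compares a detected group with a group in which the probe was not well above background, where every dim array is taken at the faintest signal that still counted as detected on it, or at what the probe itself gave, whichever is brighter. PCDHB4 read -5.06 and -4.84 with siCONT and -3.78 and -3.51 with siUHRF1, at least 1.60-fold (adjusted p = 0.236). PCDHB15 stood at -6.02 and -5.04 in siCONT and at -4.40 and -3.52 in siUHRF1, of which only the last was detected (adjusted p = 0.34). These 3 probes were higher on both siUHRF1 arrays, and none of them passed the adjusted test. All 3 had entered the test only through UHRF1-depleted groups and were among the 5 with an unadjusted p below 0.05. Their direction is therefore only a description.

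With TSA alone, a small set of probes that were on already was called higher, and most of them were in PCDHB. In siCONT + TSA against siCONT, 7 of 31 probes rose and 0 fell (10.4% of all probes tested were called, 6.5% higher and 3.95% lower), with 5 in PCDHB, 2 in PCDHG and 0 in PCDHA. PCDHB13 read 1.01 and 1.07 in siCONT and 1.71 and 1.67 in siCONT + TSA, a difference of 0.65 (SE 0.09, adjusted p = 0.014). PCDHB8 read -0.35 and -0.30 in siCONT and 0.50 and 0.52 in siCONT + TSA, a difference of 0.83 (SE 0.14, adjusted p = 0.0209). In each the TSA arrays lay well apart from the mock arrays, with little spread within a group. PCDHB2, by the probe printed above, read -0.23 and -0.16 in siCONT and 0.54 and 0.50 in siCONT + TSA and rose by 0.71 (SE 0.09, adjusted p = 0.0134). PCDHB11 rose by 0.60 (SE 0.09, adjusted p = 0.0154) and PCDHB14 by 0.63 (SE 0.12, adjusted p = 0.0271). In PCDHG, the shared-exon probe of PCDHGA8 read -0.76 and -0.83 in siCONT and -0.23 and -0.27 in siCONT + TSA, a difference of 0.54 (SE 0.11, adjusted p = 0.033). The probes of PCDHGB1 disagreed. The one at chr5:140732082-140732141 read -2.67 and -2.53 in siCONT and -1.67 and -1.80 in siCONT + TSA and rose by 0.87 (SE 0.18, adjusted p = 0.0375), whereas the one at chr5:140732188-140732247, at -2.56 and -2.60 and at -2.05 and -1.88, differed by 0.62 (SE 0.29, adjusted p = 0.225) and was not called. Over the probes detected on all 8 siRNA arrays, the median difference was 0.63 for the 9 in PCDHB (range 0.54 to 0.83), 0.34 for the 14 in PCDHG (0.03 to 0.87) and 0.07 over all 20750 such probes. The calls rest on every array of both groups: without siCONT replicate 1, siCONT replicate 2 or siCONT + TSA replicate 1 there were 0, and without siCONT + TSA replicate 2 there was 1, the variant 2 probe of PCDHGA8. That probe read -2.86 on siCONT + TSA replicate 1, whereas it lay between -6.60 and -5.56 on the other 8 arrays. Here and below, the share of all probes called with an array left out is not given. Whether other probes lost calls in the same way cannot be judged. Under normexp background correction there were 0 calls, but 9, with all 7 among them, once its background was estimated without 11 spots of 1 array, and under spike-in scaling there was 1.

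Under TSA, the probes called higher with UHRF1 depletion were in PCDHA, and all had entered the test through the group in which they were high. In siUHRF1 + TSA against siCONT + TSA, 3 of 31 probes rose and 0 fell (3.54% of all probes tested were called, 2.96% higher and 0.574% lower). The 3 were PCDHA1, PCDHA3 and PCDHA6, all adhesion proteins of the α cluster. With no filter on dim probes, PCDHA1 was lost, PCDHA3 (adjusted p = 0.0209) and PCDHA6 (adjusted p = 0.0105) were called, and so was PCDHB5 (adjusted p = 0.00631), although it was below background on every siRNA array. With the replicate number as a block, PCDHB15 was called beside the 3 (adjusted p = 0.0107). PCDHA3 read -6.40 and -6.30 in siCONT, -6.51 and -5.49 in siUHRF1, -6.26 and -6.14 in siCONT + TSA, -3.13 and -3.29 in siUHRF1 + TSA and -2.87 with 5-aza-dC. Both arrays of the combined treatment stood far above the other 6 siRNA arrays, which were all below detection, so that the level was at least 1.91-fold that in siCONT + TSA (adjusted p = 0.00502). PCDHA6 read -6.69 and -6.60 in siCONT, -6.44 and -6.33 in siUHRF1, -6.51 and -6.40 in siCONT + TSA, -3.57 and -4.23 in siUHRF1 + TSA and -3.02 with 5-aza-dC. Its order was the same with no overlap, and the bound was at least 1.18-fold (adjusted p = 0.00207). PCDHA1 read -5.81 and -6.18 in siCONT, -5.42 and -4.49 in siUHRF1, -6.18 and -5.41 in siCONT + TSA, -3.35 and -2.56 in siUHRF1 + TSA and -2.59 with 5-aza-dC. It too was detected only with the combined treatment and with 5-aza-dC, and was at least 2.28-fold higher than in siCONT + TSA (adjusted p = 0.0223).

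These signals were dim. Before background subtraction, the PCDHA3 spot had a mean signal of 70.7 and 66.8 on the siUHRF1 + TSA arrays, with siUHRF1-1 and siUHRF1-2 respectively, and of 186.8 on the 5-aza-dC array. PCDHA1 gave 64.8 and 82.3 on the siUHRF1 + TSA arrays, and PCDHA6 gave 67.3 and 57.5. PCDHAC1, which was never detected, gave 29.5 to 39.2 with siRNA and 77.0 with 5-aza-dC. Under normexp background correction with an offset of 50, 0 protocadherin probes were called, and the differences of PCDHA1, PCDHA3 and PCDHA6 turned to -0.06, -0.04 and -0.22. On siCONT + TSA replicate 2 the background that this correction estimated was -101, and with 11 spots of strongly negative net signal left out of the estimate it was 4.65. The differences were 0.38, 0.48 and 0.26, still with 0 calls. PCDHA3 and PCDHA6 remained called whichever array was left out, whereas PCDHA1 was lost without siCONT replicate 1, siCONT replicate 2, siCONT + TSA replicate 1 or either siUHRF1 + TSA array.

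Around these 3 probes, the rest of PCDHA gave different pictures. PCDHA7, the probe detected on every array, read -2.45 and -2.50 in siCONT, -2.73 and -2.19 in siUHRF1, -2.57 and -2.42 in siCONT + TSA, -2.44 and -1.89 in siUHRF1 + TSA and -1.84 with 5-aza-dC. Its siUHRF1 + TSA arrays overlapped those of siCONT + TSA, with a difference of 0.33 (SE 0.24, adjusted p = 0.538). They lay above both siCONT arrays, by 0.31 in the mean, without a call (adjusted p = 0.386). The shared-exon probe of PCDHA11 read -4.97 and -4.04 in siCONT + TSA, below detection, and -2.73 and -2.37 in siUHRF1 + TSA, at least 2.98-fold, without passing the test (adjusted p = 0.12). It was highest with the combined treatment, but its spread within siCONT and within siCONT + TSA was wide. Lying among shared exons, this probe carries the name of PCDHA11 but cannot be assigned to 1 gene of the cluster. The variant 2 probe of PCDHA11 was below background on all 9 arrays.

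**Figure D3:**
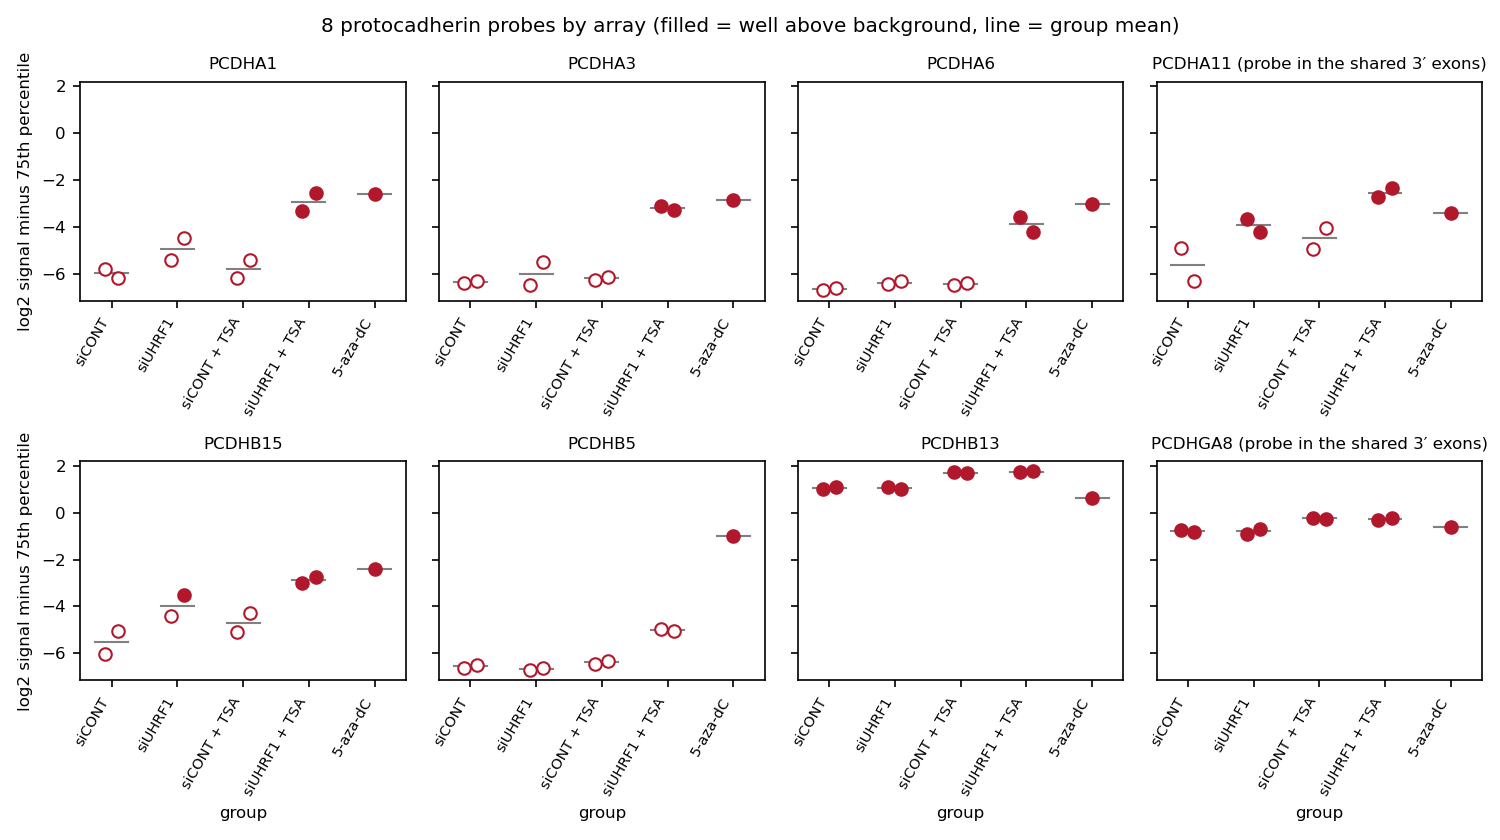
Log2 signal relative to the array's 75th percentile (vertical axis) of 8 probes in the 5 groups (horizontal axis), with 1 point per array, filled where well above background, and a line at the group mean. PCDHA1, PCDHA3 and PCDHA6 are filled only with siUHRF1 + TSA (between -4.23 and -2.56) and 5-aza-dC (between -3.02 and -2.59), PCDHB5 only with 5-aza-dC (-0.98), and PCDHB13 and the shared-exon probe of PCDHGA8 on every array.

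The medians over probes detected on all siRNA arrays were 0.28 for PCDHB (range 0.02 to 0.62) and -0.06 for PCDHG (-0.32 to 0.27), beside -0.02 over all such probes. PCDHB15 came closest among the others. It read -5.09 and -4.28 in siCONT + TSA, where it was not detected, and -2.98 and -2.73 in siUHRF1 + TSA, at least 2.44-fold (adjusted p = 0.1). PCDHB13 stood at 1.71 and 1.67 in siCONT + TSA and at 1.72 and 1.76 in siUHRF1 + TSA, a difference of 0.05 (SE 0.09, adjusted p = 0.816), and both groups exceeded siCONT.

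Against siCONT, the combined treatment had the largest number of protocadherin probes called of the 6 tested contrasts, as it had over all probes tested. In siUHRF1 + TSA against siCONT, 17 of 31 probes rose and 0 fell (23.2% of all probes tested were called, 15% higher and 8.25% lower). They were 4 in PCDHA (16 probes, 5 tested), 10 in PCDHB (19 probes, 12 tested) and 3 in PCDHG (23 probes, 14 tested). For PCDHG this is close to the share of all probes called. PCDHA1, PCDHA3, PCDHA6 and PCDHB15 were among them and could be tested only because they were detected in siUHRF1 + TSA. PCDHA11 and PCDHB4 could be tested only because they were detected in siUHRF1 and siUHRF1 + TSA. The calls of these 6 are therefore a description of detected probes. In PCDHA, PCDHA1 was at least 2.58-fold higher (adjusted p = 0.00589), PCDHA3 at least 2.16-fold (adjusted p = 0.00191), PCDHA6 at least 1.34-fold (adjusted p = 0.000833) and the shared-exon probe of PCDHA11 at least 3.42-fold (adjusted p = 0.00986). PCDHB15 was at least 2.76-fold higher (adjusted p = 0.00994) and PCDHB4, at -4.13 and -3.36 in siUHRF1 + TSA, at least 1.49-fold (adjusted p = 0.0377). These 6 probes were below background on both siCONT arrays.

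The other PCDHB probes that rose were on in control cells. PCDHB10 read -1.43 and -1.42 in siCONT, -0.72 and -1.19 in siUHRF1, -0.94 and -0.82 in siCONT + TSA, and -0.07 and -0.44 in siUHRF1 + TSA. Both single treatments lay between control and combination, and the combination exceeded siCONT by 1.17 (SE 0.19, adjusted p = 0.00912). PCDHB11 read 0.92 and 0.93 in siCONT, 1.18 and 1.22 in siUHRF1, 1.54 and 1.52 in siCONT + TSA, and 1.82 and 1.90 in siUHRF1 + TSA. Its 4 groups did not overlap, with the same order as for PCDHB10 in their means, and the combination differed from siCONT by 0.93 (SE 0.09, adjusted p = 0.00162). PCDHB16 read -1.73 and -1.72 in siCONT, -1.54 and -1.51 in siUHRF1, -1.15 and -1.21 in siCONT + TSA, and -1.06 and -0.71 in siUHRF1 + TSA, and rose by 0.84 (SE 0.13, adjusted p = 0.0078). PCDHB2 reached 0.75 and 0.84 in siUHRF1 + TSA at the first of its probes. Both of its probes rose, by 1.00 and 0.95, PCDHB8 by 0.85, PCDHB14 by 0.72 and PCDHB13 by 0.70. PCDHB9 and PCDHB12 were tested and not called, with differences of 0.82 (adjusted p = 0.178) and 0.95 (adjusted p = 0.0698). In PCDHG the first PCDHGB1 probe rose by 1.11 (SE 0.18, adjusted p = 0.00958), while the other one differed by 0.40 (adjusted p = 0.369). PCDHGA2 read -1.17 and -1.14 in siCONT and -0.73 and -0.51 in siUHRF1 + TSA, a rise of 0.53 (SE 0.13, adjusted p = 0.0283). The shared-exon probe of PCDHGA8 also rose, by 0.53 (SE 0.11, adjusted p = 0.0199). PCDHGA3, detected on every array, read -1.53 and -1.61 in siCONT and -1.48 and -1.19 in siUHRF1 + TSA and was not called. Medians over probes detected on all siRNA arrays were 0.85 for PCDHB (range 0.70 to 1.17) and 0.32 for PCDHG (-0.15 to 1.11), beside 0.04 over all. Whether more cells expressed these genes or each cell made more RNA cannot be told apart in such samples. The count fell to 7 without siCONT replicate 1 and to 8 without siCONT replicate 2, and PCDHA11 and PCDHB15 were among the calls lost without siUHRF1 + TSA replicate 2.

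**Figure D4:**
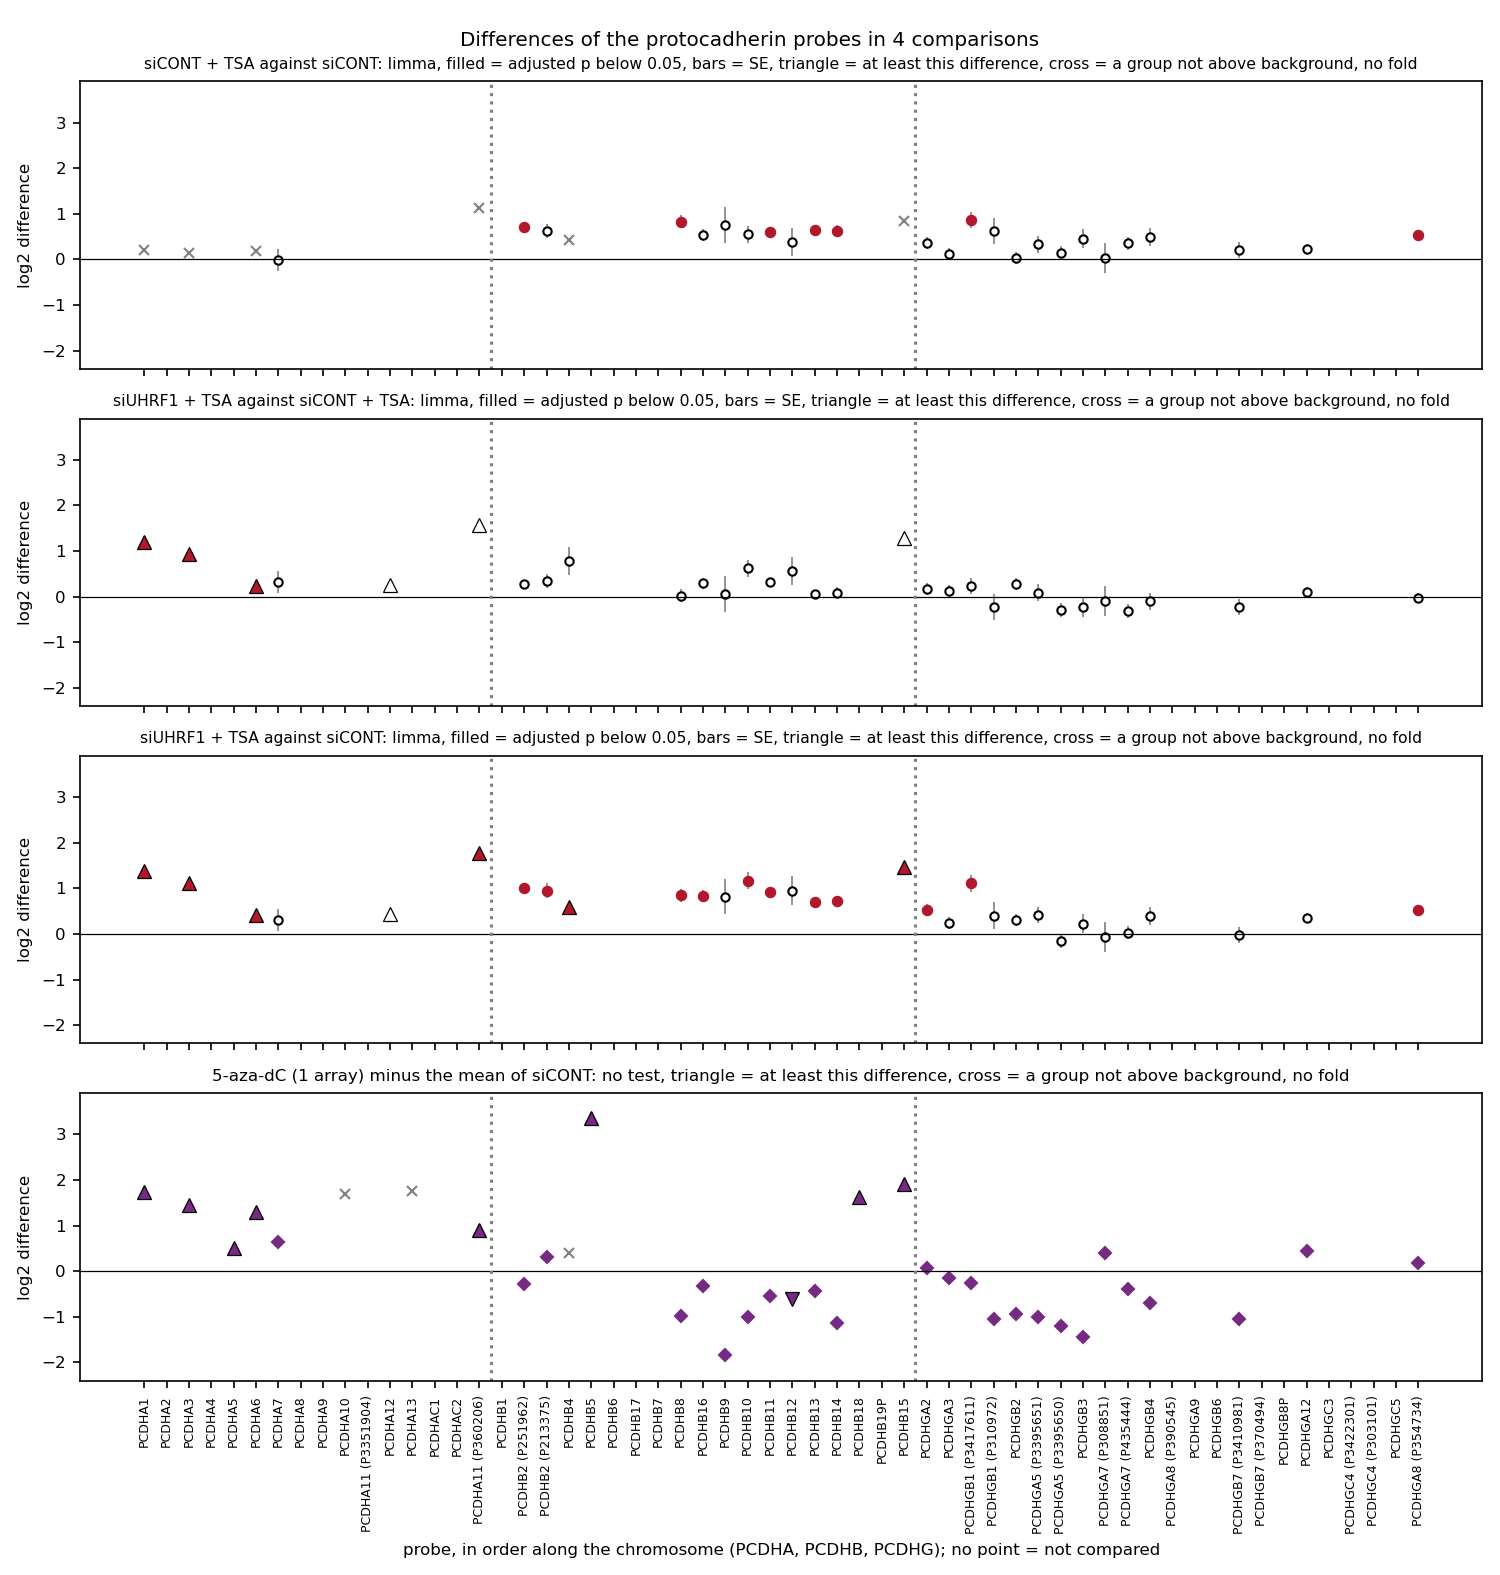
Log2 differences (vertical axis) of the compared probes in chromosome order (horizontal axis) in 4 comparisons, with limma standard errors as bars and filled symbols for an adjusted p below 0.05 (5-aza-dC has no test). Triangles are lower limits where 1 group was not above background, and crosses are measured differences for which no fold is given. With TSA alone the filled points lie in PCDHB and PCDHG (0.54 to 0.87), with UHRF1 depletion under TSA they are PCDHA1, PCDHA3 and PCDHA6, and with 5-aza-dC several PCDHA probes lie above 0 while most PCDHG probes lie below.

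TSA in UHRF1-depleted cells came with calls in PCDHA, PCDHB and PCDHG. In siUHRF1 + TSA against siUHRF1, 12 of 31 probes rose and 0 fell (15.5% of all probes tested were called, 9.95% higher and 5.53% lower), with 3 in PCDHA, 7 in PCDHB and 2 in PCDHG. The 3 were again PCDHA1 (at least 2.88-fold, adjusted p = 0.0308), PCDHA3 (at least 2.41-fold, adjusted p = 0.00508) and PCDHA6 (at least 1.49-fold, adjusted p = 0.00243), with the same siUHRF1 + TSA arrays as in the comparisons above. They were tested only because they were detected on those arrays, so their rise is a description of detected probes. PCDHB2 rose by 0.93 and 0.85 at its probes, PCDHB8 by 0.82, PCDHB13 by 0.68, PCDHB11 by 0.66, PCDHB14 by 0.65 and PCDHB16 by 0.64. The count fell to 7 without siCONT replicate 1, siCONT replicate 2 or siCONT + TSA replicate 2 and to 8 without siCONT + TSA replicate 1, siUHRF1 replicate 1 or siUHRF1 + TSA replicate 2, while it rose to 18 without siUHRF1 replicate 2.

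An interaction term asked if UHRF1 depletion acted differently in TSA-treated and mock cells. By limma, 0 of 31 probes were called, beside 0.38% of all probes tested (0.359% higher, 0.0211% lower). At an unadjusted p below 0.05, for which the share of all probes is not given, there were 3. They were PCDHA6 (adjusted p = 0.0522), PCDHA3 (adjusted p = 0.123) and PCDHA1 (adjusted p = 0.823), each with the larger difference under TSA, and on no siRNA array without the combined treatment was any of them above background. PCDHA1, PCDHA3 and PCDHA6 were tested only because they were detected in siUHRF1 + TSA, which favours a larger difference under TSA. Their direction here is therefore only a description of detected probes. No PCDHB or PCDHG probe detected on all siRNA arrays had an interaction below -0.26 or above 0.32.

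The 5-aza-dC array showed a wider set of PCDHA probes and lower signals for several PCDHB and PCDHG probes. With 1 array there is no test, and a probe was compared where it was detected on the 5-aza-dC array or on both siCONT arrays, and counted where it lay over 2-fold from the siCONT mean. Of 35 probes compared, 18 lay outside that limit (32% of all 26724 probes compared), 10 of them higher (18.5% of all) and 8 lower (13.6% of all). Over 4-fold there were 7, all higher, beside 12.5% of all probes compared (9.79% higher, 2.69% lower). The higher ones were 7 of the 16 probes in PCDHA (PCDHA1, PCDHA3, PCDHA5, PCDHA6, PCDHA10, PCDHA11 and PCDHA13), 3 of 19 in PCDHB (PCDHB5, PCDHB15 and PCDHB18) and 0 of 23 in PCDHG. All 10 were below background in siCONT and were compared only because they were detected with 5-aza-dC, which fixes their direction, so the count is read only as detection and bounds are given for them. PCDHB5 stood out. It read -6.61 and -6.49 in siCONT, -6.73 and -6.62 in siUHRF1, -6.44 and -6.33 in siCONT + TSA, -4.95 and -5.04 in siUHRF1 + TSA, all below detection, and -0.98 with 5-aza-dC, at least 10.2-fold above siCONT. PCDHB15 was at least 3.76-fold higher, PCDHA1 at least 3.32-fold, PCDHB18 at least 3.1-fold, PCDHA3 at least 2.73-fold and PCDHA6 at least 2.46-fold. The bound was 1.87 for the shared-exon probe of PCDHA11 and 1.42 for PCDHA5, which read -3.82. PCDHA10 and PCDHA13 read -4.77 and -4.34 on the 5-aza-dC array and gave no bound above 1, so that a 2-fold difference was not shown for them.

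The lower probes were all on in control cells. PCDHB9 read -1.06 and -1.09 in siCONT and -2.91 with 5-aza-dC, a difference of -1.84. PCDHB14 read -0.45 on both siCONT arrays and -1.58 with 5-aza-dC, a difference of -1.13. In PCDHG the widest such difference was at PCDHGB3, which read -2.82 and -3.05 in siCONT and -4.37 with 5-aza-dC. Nearest to the limit, a probe of PCDHGA5 only just counted as lower, and PCDHB8, with -0.99, did not. The shared-exon probe of PCDHGA8, at -0.62 with 5-aza-dC, was not among the lower probes. Over the probes detected on all 3 arrays the medians were -0.55 for 9 PCDHB probes, of which 1 was above 0, and -0.54 for 14 PCDHG probes, of which 4 were above 0, beside -0.13 over all 21366. The split depends on how the arrays are scaled. The split of 10 higher and 8 lower became 10 and 10 with quantile normalization, 1 and 9 with normexp, and 5 and 25 with spike-in scaling, which moved the median of all probes by -1.86. PCDHB5 remained on the higher side in all of these.

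Genes tied to the clusters were read from lists. None of the lists had a call in siUHRF1 against siCONT. Among 23 cohesin, CTCF and silencing factors, all tested, siUHRF1 + TSA against siCONT called 0 higher and 1 lower (23.2% of all probes tested were called), SMCHD1, a silencer of clustered genes, with -0.42 (SE 0.11, adjusted p = 0.0364). Against siCONT + TSA the list had 0 calls, and its median there was 0.04. Among 23 binding partners and processing enzymes, 21 were tested, with 2 higher and 4 lower against siCONT and 0 against siCONT + TSA, beside 23.2% and 3.54% of all probes tested. MARCKS, a membrane protein near the actin cortex, rose by 1.18 (SE 0.09, adjusted p = 0.000926), PSEN2, a subunit of γ-secretase, rose by 0.84 (SE 0.15, adjusted p = 0.0113), and WASF1, an actin regulator, fell by 0.59 (SE 0.12, adjusted p = 0.0157).

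Of 28 genes within or beside the region, 18 were tested. In siUHRF1 + TSA against siCONT, 4 were higher and 2 lower, beside 15% and 8.25% of all probes tested, and against siCONT + TSA 0 were higher and 1, PCDH1, was lower, beside 2.96% and 0.574%. TAF7, a subunit of the general transcription machinery, lies between PCDHB and PCDHG. It read 3.32 and 3.31 in siCONT, 3.84 and 3.87 in siCONT + TSA, 3.84 and 3.79 in siUHRF1 + TSA and 5.13 with 5-aza-dC. It rose by 0.54 with TSA alone (SE 0.09, adjusted p = 0.0226). HDAC3, which codes for a histone deacetylase and lies just beyond PCDHG, read between 3.55 and 3.76 on the siRNA arrays and 3.91 with 5-aza-dC, without a call. Nearby, WDR55 rose by 0.96 (adjusted p = 0.00541) and TMCO6 fell by 0.80 (adjusted p = 0.00502) in siUHRF1 + TSA against siCONT. Of 15 protocadherin genes outside the clusters, 1 could be tested, the same PCDH1. It was lower where clustered genes were called higher, with 2.68 and 2.65 in siCONT, 2.34 and 2.29 in siUHRF1, 2.20 and 2.19 in siCONT + TSA, 1.71 and 1.55 in siUHRF1 + TSA and 1.23 with 5-aza-dC. Its groups did not overlap, and siUHRF1 + TSA fell by 1.03 against siCONT (SE 0.10, adjusted p = 0.00168) and by 0.56 against siCONT + TSA (SE 0.10, adjusted p = 0.0347).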

How the data were processed

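Feature Extraction 10.7.3.1 was run by the authors, and the deposited spot signals are linear intensities after background subtraction and detrending, with no normalization between arrays. The deposited value table held the same signals, within 0.0072 on the log2 scale. Each array had 62976 spots, of which 4259 were controls, and a 75th percentile of 245 to 338 (822 for 5-aza-dC). No spot was saturated. Here the log2 signal was shifted by the array's 75th percentile over non-control spots, outlier spots were dropped and spots of a probe averaged. The 8 siRNA arrays were fitted in 4 groups with limma 3.58.1 (lmFit, eBayes; R 4.3.3), two-sided, and the script was tested on simulated data. The number of arrays, and for dim probes their closeness to background, limit the precision.

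Values per array are given for probes called in a comparison with groups that do not overlap (up to 10 a cluster), the brightest and always-detected probes of each cluster, and those detected with 5-aza-dC alone, plus UHRF1, TAF7, HDAC3 and up to 3 called genes of each list. Members, lists and this rule were chosen with earlier results of these data known. Slide and scan could not be fitted as blocks, since all siRNA arrays share 1 of each. Alternatives covered background, scaling, filter, outliers, value table, replicate block, prior, call rule and arrays left out.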

Additional observations from a re-analysis of the deposited data

How the results depend on the processing

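Counts of protocadherin probes called kept within 1.5 times of the reported ones under the deposited value table, outlier spots kept, quantile normalization, the other percentile, a trended and robust prior and 1 probe per gene name, in every limma comparison. UHRF1 depletion alone had 0 calls under all adjusted alternatives, and 5 (limma) or 3 (the methods' t-test) at an unadjusted p below 0.05. For every count under an alternative, here and below, the share of all probes is not given. These counts only show how the count moves, and not whether protocadherin probes differ in this from other probes. TSA alone, with 7, went to 12 and 14 at these unadjusted p-values, 0 with a 2-fold limit, 0 with normexp, 1 with spike-in scaling, 3 without a filter, 16 on the arrays compared only, and 0 to 8 leaving out 1 array. siUHRF1 + TSA against siCONT, with 17, went to 8 with a 2-fold limit, 7 with normexp, 11 with spike-in scaling, 11 when every siRNA array had to be above background, 0 with the adjusted t-test and 7 to 18 leaving out 1 array. Against siCONT + TSA, 3 became 9 and 7 unadjusted (limma, t-test), 0 with the adjusted t-test, 0 with normexp, also when its background was estimated without 11 spots (chosen after seeing the data), 0 with the strict filter, which drops the 3 probes, and 2 to 4 leaving out 1 array. Against siUHRF1, 12 became 4 with a 2-fold limit, 2 with normexp, 5 with spike-in scaling, 7 without a filter, 2 on the arrays compared only, 0 with the adjusted t-test and 7 to 18 leaving out 1 array. The interaction, with 0, had 3 unadjusted, 1 with spike-in scaling, 1 without a filter and 0 to 1 leaving out 1 array. For 5-aza-dC, 18 probes over 2-fold became 7 over 4-fold, 10 with either normexp, 30 with spike-in scaling, 8 above background on all 3 arrays and 18 to 20 leaving out 1 siCONT array, and limma over all 9 arrays called 21.

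Directions turned in siUHRF1 + TSA against siCONT + TSA with normexp for PCDHA1 (-0.06), PCDHA3 (-0.04) and PCDHA6 (-0.22), and with 5-aza-dC under either normexp for PCDHA11 (-0.27), PCDHA5 (-0.44), PCDHA10 (-0.41) and PCDHA13 (-0.58) and under spike-in scaling for PCDHA5 (-0.14), PCDHA10 (-0.19) and PCDHA13 (-0.14). In siUHRF1 + TSA against siCONT + TSA, PCDHA1, PCDHA3 and PCDHA6 were higher again once the background was estimated without 11 spots of siCONT + TSA replicate 2. The cause of the other turns was not tested. Replicate numbers paired only the UHRF1-depleted groups, which share siRNAs (deviations correlated at 0.568, the other pairs at -0.0646 to 0.0873). With a replicate block the counts were 0, 7, 16, 4, 13 and 0 in the order above. All PCDHA calls rest on spots near background, and signal there limits what can be said of size.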
